A study of Mus musculus with 8 samples.

Results

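The loci of the 3 Jun family genes, Jun, Junb and Jund, were examined for binding by c-Jun, mapped by ChIP-seq in 2 lines of mouse pluripotent cells. A c-Jun peak was taken as a member when its centre lay within 50 kb of the transcription start site (TSS) of one of these genes in mm10. This rule found 20 of 22198 peaks, namely 13 of 16166 in EpiSCs and 7 of 6032 in kEpiSCs. EpiSCs are wild type epiblast stem cells, a primed pluripotent line derived from the post-implantation mouse embryo. The labels give the cross CBA/CaJ X C57BL/6J for the EpiSC ChIP libraries, whereas the study's methods name 129 females crossed with OG2 males. The kEpiSC line is EpiSCs infected with a Klf4 lentivirus and selected with G418, with Klf4 under a CAG promoter beside an Oct4-GFP reporter. The study calls this reporter OG2, so by its methods the reporter was in the cross behind the EpiSCs too. Both lines were grown in primed medium with Activin A and bFGF. Of the 8 libraries, 2 per line came from c-Jun ChIP and 2 per line from input DNA. The deposited data are 1 peak list per line, so there is no spread between replicates and neither peaks nor lines could be tested against replicate error. The sources disagree on the antibody, which is c-Jun in the study's methods and in the label field for it but H3K27ac in the labels' protocol. Peak lists hold no expression levels, so the labelled cell type could not be checked against markers.

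Jun, Junb and Jund encode c-Jun, JunB and JunD, transcription factors with a basic region that contacts DNA and a leucine zipper that pairs them with each other or with Fos, ATF and Maf family proteins. Such dimers are called AP-1 and bind TGACTCA or TGAGTCA (written TGASTCA here), and dimers with ATF or CREB proteins prefer TGACGTCA, the cAMP response element (CRE). c-Jun is known to bind and activate its own promoter through TGACATCA, a site close to both of these. JunB is known as a weaker activator that can restrain c-Jun, and JunD as a member expressed widely in resting cells. All 3 genes have a single exon.

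The sequences that the peaks of these loci turn on are given 5′ to 3′ on the strand of the gene, from the reference genome (GRCm38.p6, the assembly of mm10). Capitals mark TGACATCA in the stretch upstream of Jun (chr4:95052223-95052358, minus strand), the start codon and the stop codon at the 2 ends of the Jun coding sequence (chr4:95051232-95051271 and chr4:95050267-95050306, minus strand), the 3 AP-1 sites upstream of Junb (chr8:84985642-84985772, minus strand), the CRE of Jund (chr8:70698725-70698752, plus strand), and the AP-1 sites of 2 peaks found only in kEpiSCs (chr4:95023923-95023959 on the minus strand and chr8:70682316-70682352 on the plus strand).
Jun upstream: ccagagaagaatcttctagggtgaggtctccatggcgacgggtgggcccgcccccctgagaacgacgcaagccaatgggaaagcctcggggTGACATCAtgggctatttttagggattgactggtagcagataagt
Jun coding start: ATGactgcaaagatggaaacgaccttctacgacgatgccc
Jun coding end: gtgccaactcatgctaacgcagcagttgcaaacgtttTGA
Junb upstream: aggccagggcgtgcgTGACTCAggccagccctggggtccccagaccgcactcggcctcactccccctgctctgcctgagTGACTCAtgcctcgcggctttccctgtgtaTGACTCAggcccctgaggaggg
Jund CRE: cccacccccaTGACGTCAacccacaatg
Jun downstream, kEpiSC: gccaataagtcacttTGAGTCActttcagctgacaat
Jund upstream, kEpiSC: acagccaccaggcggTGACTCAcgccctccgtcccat

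All 3 genes carried at least 1 peak within 10 kb of the TSS in both lines. Over 21000 protein-coding genes, 21.8% had such a peak in EpiSCs and 8.27% in kEpiSCs, and within 50 kb 50.7% and 27.0% did. In EpiSCs Jun had 3 peaks within 50 kb, Junb 7 and Jund 3. In kEpiSCs the numbers were 3, 1 and 3. The fold enrichment (pileup of ChIP reads at the summit divided by local background, after adding 1 to each) ran from 3.28 to 15.9 in EpiSCs (median 5.47, 6.16 over the whole list) and from 5.48 to 9.89 in kEpiSCs (median 7.42, 7.23 over the list). The fold and the p-value of a peak together give its number of ChIP reads at the summit, which was 7 to 29 in EpiSCs and 12 to 37 in kEpiSCs. The medians of the whole lists were 10 and 14 reads, so both the members and the typical peak rest on few reads.

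**Figure D1:**
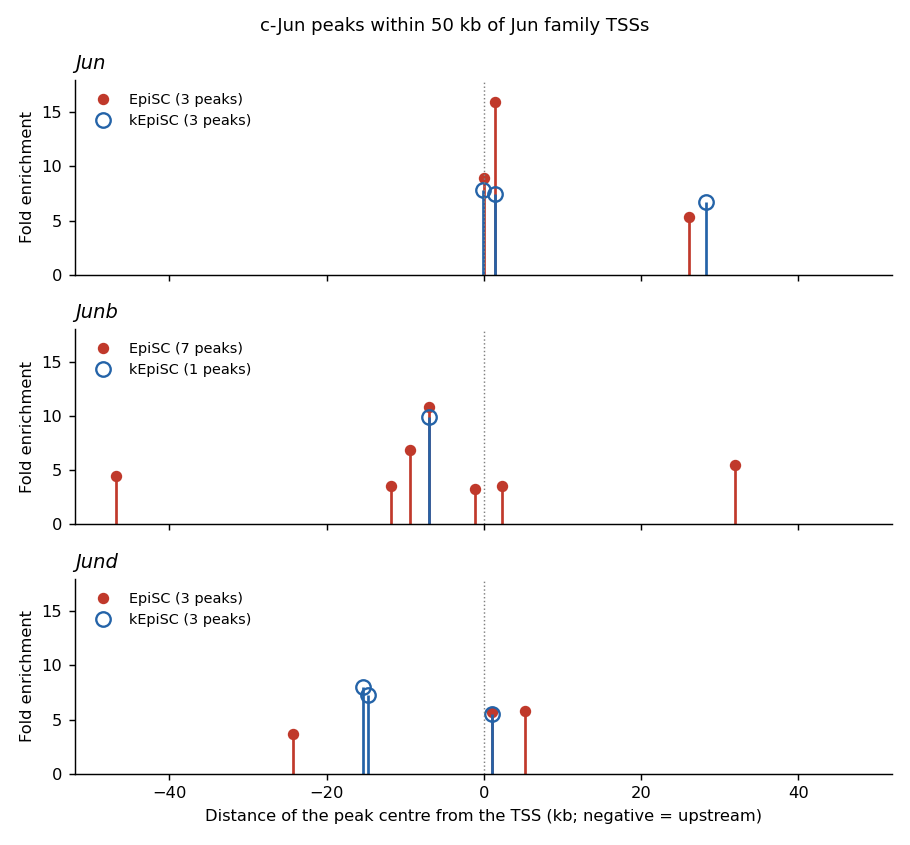
Peak centres are plotted by distance from the TSS in kb (horizontal, upstream negative) and by fold enrichment at the summit (vertical), with EpiSC peaks as filled red points and kEpiSC peaks as open blue points. The highest point is the EpiSC peak in the Jun exon at 15.9, and Junb has 7 red points and 1 blue point.

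The peak in the Jun exon did not span the exon. It covered the coding sequence and stopped at its ends in both lines. The exon runs from 95049036 to 95052222 on chromosome 4 (3187 bp, minus strand), with 951 bp of 5′ UTR, 1005 bp of coding sequence from 95050267 to 95051271, and 1231 bp of 3′ UTR. In EpiSCs the peak lay at chr4:95050268-95051293 and was 1026 bp wide, with its centre 1441 bp downstream of the TSS. It began 1 bp inside the end of the stop codon and ended 22 bp past the start codon. In kEpiSCs it lay at chr4:95050277-95051272 and was 996 bp wide, 1447 bp downstream of the TSS, beginning 10 bp inside the stop end and ending 1 bp past the start codon. The peak therefore held 99.9% of the coding bases in EpiSCs and 99.0% in kEpiSCs, and 32.2% and 31.3% of the exon. Of the 3′ UTR it held no base in either list. The lists hold no reads, so whether the reads of this peak came from the chromosomal gene or from other DNA carrying the Jun coding sequence was not tested. It is therefore reported as a peak of the lists and not as a site of c-Jun binding.

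**Figure D2:**
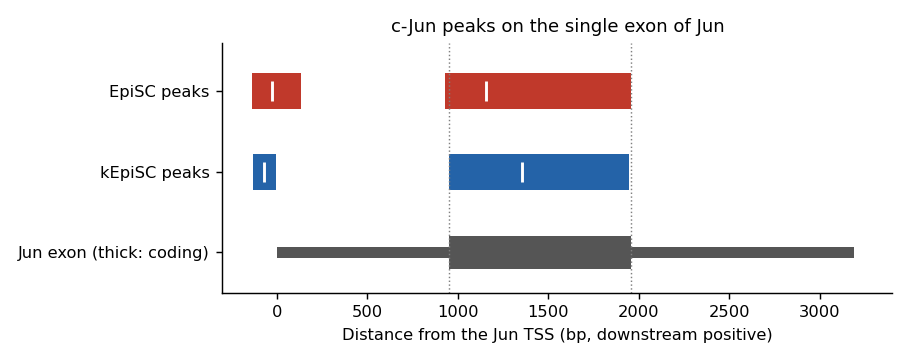
Along a horizontal axis in bp from the Jun TSS, red and blue boxes are EpiSC and kEpiSC peaks drawn over their width with the summit as a white line, and the grey bar is the exon with the coding sequence thick. Dotted lines mark the ends of the coding sequence, and both wide peaks end within 22 bp of them.

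The coding peak of Jun was one of the widest peaks of each list. Counting itself, 27 of 16166 EpiSC peaks and 8 of 6032 kEpiSC peaks were at least as wide, against median widths of 190 and 179 bp. Its fold enrichment was 15.9 in EpiSCs with 28 reads at the summit, and 1.35% of the list had as low a q-value. In kEpiSCs the fold was 7.42 with 37 reads, and 12.4% of the list had as low a q-value. The local background at the summit was 3.00 in kEpiSCs and 0.819 in EpiSCs, which is 6.15 and 1.29 times the median of the lists. The fold is a ratio to this background, and the kEpiSC summit did not have fewer reads. The lower fold in kEpiSCs therefore goes with the higher background. Why the background differed was not tested. The summits of the 2 lists lay 198 bp apart, both in coding sequence. No TGASTCA, TGACGTCA or TGACATCA was present in the peak, and the closest match to TGASTCA had 2 mismatches. Peaks without a match of at most 1 mismatch made up 19.9% of the EpiSC list (95% Wilson interval 19.3 to 20.5%, counting error only). In the kEpiSC list they made up 11.7% (10.9 to 12.6%). These shares were not matched for width, and a wide peak has more positions at which a match can fall. The peak was 63.1% GC in EpiSCs, with a median of 50.6% over the list.

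Junb and Jund had no peak on their coding sequences, which are 64.7% and 70.6% GC beside 63.1% for Jun. None of the 956 stretches of 50 bases in the Jun coding sequence recurs in that of Junb or Jund. The search covered exact matches in those coding sequences only, so it cannot show where the reads of the Jun peak came from. Over 18951 protein-coding genes with at least 500 coding bases, 4.26% had any coding base under a peak in EpiSCs and 1.21% in kEpiSCs. Jun had the highest share of coding bases under peaks in both lists. In EpiSCs the next genes were 1700071K01Rik with 60.9%, Spry4, an inhibitor of receptor tyrosine kinase signalling, with 51.5%, the GM-CSF receptor gene Csf2ra with 40.2% and Ankrd66 with 39.0%. In kEpiSCs they were Tcf19 with 51.6%, Ankrd66 with 33.9%, Spry4 with 30.5% and the general transcription factor gene Taf7 with 26.9%. Klf4, whose coding sequence was introduced into kEpiSCs, had 0% of its 1452 coding bases under a peak in either list. A transgene in kEpiSCs is expected in their input too, so this share cannot show how other introduced coding DNA would appear. Both ends of a peak fell within 25 bp of the ends of 1 stretch of coding sequence for 32 EpiSC peaks and 7 kEpiSC peaks. Jun was the widest of them in each list, and the next widest was 349 bp at Iba57 in EpiSCs and 214 bp at Tjp3 in kEpiSCs.

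**Figure D3:**
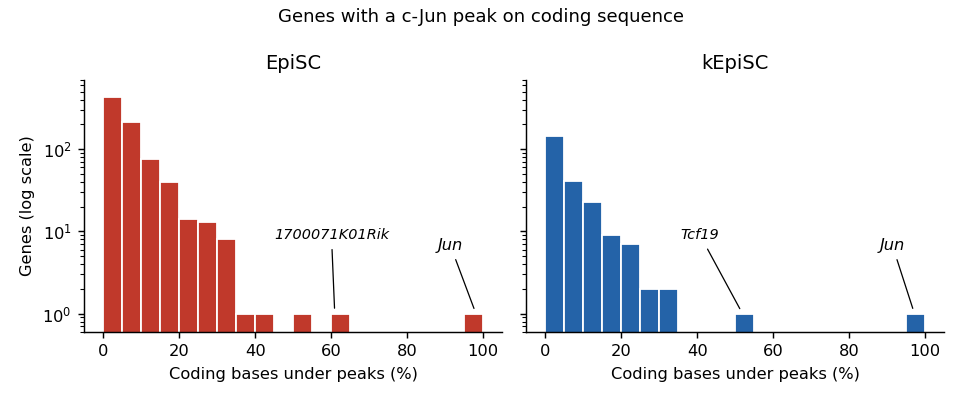
Bars count genes (log scale) by the percentage of their coding bases that lies under c-Jun peaks, in bins of 5%, for genes with at least 500 coding bases of which any lies under a peak. Jun stands alone in the last bin, at 99.9% in EpiSCs and 99.0% in kEpiSCs, with 1700071K01Rik (60.9%) and Tcf19 (51.6%) next.

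A second peak lay at the Jun promoter in both lines. In EpiSCs it was at chr4:95052088-95052358, 271 bp wide with its centre 1 bp from the TSS, so that 136 bp lay upstream and 135 bp in the exon. The fold enrichment was 8.94 with 18 reads, and 14.4% of the list had as low a q-value. In kEpiSCs it was at chr4:95052228-95052355, 128 bp wide, wholly upstream of the TSS with its centre at 69 bp, and had a fold of 7.82 with 16 reads (35.2% of the list as low). The 2 peaks on the gene were separate, with 794 bp between them in EpiSCs and 955 bp in kEpiSCs. Both promoter peaks held TGACATCA from 45 to 38 bp upstream of the TSS, shown in capitals in the first sequence above, 17 bp from the EpiSC summit and 29 bp from the kEpiSC summit. Neither held TGASTCA or TGACGTCA. TGACATCA, counted on both strands, was present in 5.24% of EpiSC peaks (95% Wilson interval 4.91 to 5.59%) and 6.15% of kEpiSC peaks (5.57 to 6.79%), and in 3.62% of 32851 RefSeq promoter sequences of 250 bp before to 50 bp after a start. All 3 Jun family promoters were matched in that set, and the Jun promoter alone held TGACATCA. None of these sequences held TGASTCA or TGACGTCA. The Jund sequence is taken at the RefSeq start (chr8:70697489-70697788). It therefore leaves out the TGACGTCA described below, which lies near the GENCODE start.

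Downstream of Jun each line had 1 further peak, between genes and at a different position. The EpiSC peak was at chr4:95025869-95026307, 439 bp wide and 26134 bp from the TSS, with a fold of 5.29 and 9 reads and no exact AP-1 site. The kEpiSC peak was at chr4:95023882-95024000, 119 bp wide and 28281 bp from the TSS, with a fold of 6.76 and 12 reads, and held a TGAGTCA 21 bp from its summit. A gap of 1868 bp separates them. No other protein-coding TSS lies within 50 kb of that of Jun. A peak just outside the distance limit was found in both lines, 50617 bp downstream in EpiSCs (chr4:95001515-95001694, 180 bp) and 50613 bp in kEpiSCs (chr4:95001530-95001688, 159 bp). It had a fold of 14.3 with 26 reads in EpiSCs and 7.86 with 19 reads in kEpiSCs, and held 1 TGAGTCA and 1 TGACTCA. Its nearest TSS was that of the deubiquitinase gene Mysm1, 22504 bp from the EpiSC peak. The peak just inside the limit, at 46745 bp, was the Junb peak near Get3 described below.

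At Junb (84976909 to 84978748 on chromosome 8, minus strand) the strongest EpiSC peak and the only kEpiSC peak lay at the same place upstream and held 3 AP-1 sites. In EpiSCs it was at chr8:84985579-84985813, 235 bp wide with its centre 6948 bp upstream, and had a fold of 10.8 with 29 reads. Of the EpiSC list 3.93% had as low a q-value. In kEpiSCs it was at chr8:84985566-84985817, 252 bp wide and 6943 bp upstream, and had a fold of 9.89 with 37 reads (5.57% of the list as low). Its 3 copies of TGACTCA, the second 1 bp from the EpiSC summit and 11 bp from the kEpiSC summit, are printed above. At least 3 copies of TGASTCA were present in 1.49% of EpiSC peaks (1.32 to 1.69%) and 2.69% of kEpiSC peaks (2.31 to 3.12%). The local background was 2.81 and 4.10 times the median of the lists. The peak was nearer to the TSS of Hook2, a gene of a microtubule-linked adaptor protein, at 4311 bp in EpiSCs and 4315 bp in kEpiSCs.

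The other 6 Junb peaks were found in EpiSCs only and were weaker. Closest to the gene were chr8:84979791-84980049, 259 bp wide and 1172 bp upstream (fold 3.28, 8 reads), and chr8:84976409-84976559, 151 bp wide and 2264 bp downstream, past the 3′ end of the exon (3.54, 12 reads). These are among the lowest-scoring of the list, since 99.9% and 93.3% of EpiSC peaks had as low a q-value, and neither held an AP-1 site with fewer than 2 mismatches. The background at the second was 4.21 times the median and its sequence 76.8% GC. GENCODE also places a Junb start at 84976542, inside this second peak. The peak at chr8:84988096-84988226, 131 bp wide and 9413 bp upstream, had a fold of 6.86 with 10 reads and a TGACTCA 6 bp from its summit. The remaining 3 lay at the starts of neighbours. At Hook2 the peak was at chr8:84990458-84990631, 174 bp wide and 11796 bp from the Junb TSS (fold 3.55, 8 reads). At Get3, which encodes an ATPase that delivers tail-anchored membrane proteins, it was at chr8:85025395-85025592, 198 bp wide and 46745 bp away, with 1 TGACTCA (4.45, 8 reads). At Rtbdn it was at chr8:84946761-84946876, 116 bp wide and 31929 bp away (5.47, 7 reads). The TSSs of 8 other protein-coding genes lie within 50 kb of that of Junb, as many as 3.24% of all genes have, and for 2 of its 7 EpiSC peaks Junb had the nearest TSS.

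At Jund (70697739 to 70700616 on chromosome 8, plus strand) a peak with a CRE was found in both lines. In EpiSCs it was at chr8:70698729-70698964, 236 bp wide with its centre 1107 bp downstream of the RefSeq TSS in the 5′ UTR, and had a fold of 5.70 with 25 reads. In kEpiSCs it was at chr8:70698719-70698978, 260 bp wide and 1109 bp downstream, and had a fold of 5.48 with 27 reads. Of the lists 22.8% and 48.8% had as low a q-value. The peak ended 93 bp before the coding sequence in EpiSCs and 79 bp in kEpiSCs. GENCODE starts the Jund transcript at 70698949, 1210 bp downstream of the RefSeq start and inside the peak in both lines, so by that annotation the peak is at the promoter and the TGACGTCA lies 214 to 207 bp upstream of the start. The site was 120 bp from the EpiSC summit and 18 bp from the kEpiSC summit. TGACGTCA was present in 2.52% of EpiSC peaks (2.29 to 2.77%) and 2.79% of kEpiSC peaks (2.40 to 3.23%). The local background here was high in both lists, 5.61 and 6.15 times the median, and its part in the peak was not tested.

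The other Jund peaks differed between the lists. In kEpiSCs a pair of peaks lay upstream, between genes. One was at chr8:70682277-70682501, 225 bp wide and 15350 bp from the TSS, with a fold of 8.03 and 14 reads. The second was at chr8:70682836-70683120, 285 bp wide and 14761 bp from the TSS, with a fold of 7.31 and 16 reads. Each held 1 exact AP-1 site, and each was nearer to Lsm4, a gene of RNA splicing and decay, at 9158 and 9747 bp. In EpiSCs the nearest peak to this pair was 8721 bp away, in an intron of Lsm4 at chr8:70673387-70673555, 169 bp wide and 24268 bp from the Jund TSS, with a fold of 3.70 and 8 reads. The last EpiSC peak, at chr8:70702899-70703017, was 119 bp wide, 5219 bp downstream and in the 5′ UTR of Iqcn, with a fold of 5.76, 15 reads and 1 TGACTCA. The TSSs of 5 other protein-coding genes lie within 50 kb of that of Jund.

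The coding and promoter peaks of Jun, the 3-site peak of Junb and the CRE peak of Jund were listed in both lines. These 4 are 30.8% of the 13 EpiSC peaks and 57.1% of the 7 kEpiSC peaks, where 28.3% of all EpiSC peaks and 75.8% of all kEpiSC peaks overlapped a peak of the other line. Without the Jun coding peak, whose source was not tested, 3 peaks were shared, which is 25% of 12 in EpiSCs and 50% of 6 in kEpiSCs. In EpiSCs the 4 shared peaks had 18 to 29 reads at the summit and the 9 others 7 to 15. Their folds overlapped, at 5.70 to 15.9 for the shared peaks and 3.28 to 6.86 for the others. Over the whole EpiSC list, 62.5% of peaks with a q-value no higher than that of the weakest shared Jun family peak were found in kEpiSCs (95% Wilson interval 60.9 to 64.0%) and 18.2% of the weaker ones (17.5 to 18.9%). In kEpiSCs the 3 unshared peaks had folds of 6.76 to 8.03, inside the range of the shared ones, 5.48 to 9.89. Their reads were 12 to 16, beside 16 to 37 for the shared ones. Whether the lines differ at any of these positions was not tested, since each has a single list.

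An exact AP-1 site lay under a minority of the EpiSC peaks. In EpiSCs 4 of the 13 (30.8%) had TGASTCA within their central 200 bp, beside 45.9% of the list. In kEpiSCs 4 of the 7 (57.1%) did, beside 58.5% of the list. Of the 4 peaks shared by both lines, 1 held it, at Junb. All 3 peaks found only in kEpiSCs held it, beside 46.5% of all kEpiSC-only peaks (44.0 to 49.1%), and 3 of the 9 found only in EpiSCs did, beside 40.7% (39.8 to 41.6%). The Jun coding peak, which had the lowest q-value of the Jun peaks in both lists, held none of the motifs searched. The other shared peaks each held a different one, with TGACATCA at the Jun promoter, TGACTCA upstream of Junb and TGACGTCA at Jund.

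**Figure D4:**
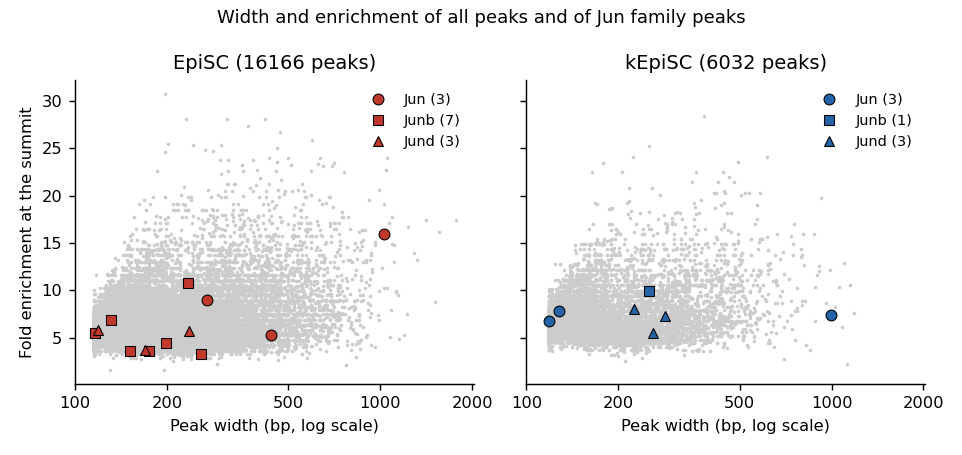
Peak width in bp (horizontal, log scale) is plotted against fold enrichment at the summit (vertical), with all peaks of a list in grey and Jun family peaks as coloured circles (Jun), squares (Junb) and triangles (Jund). The Jun coding peak lies far right in both panels, at 1026 bp and a fold of 15.9 in EpiSCs and at 996 bp and 7.42 in kEpiSCs, and the other Jun family peaks lie within the grey cloud.

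By the number of peaks within 50 kb, Junb ranked above Jun and Jund in EpiSCs and below them in kEpiSCs. In EpiSCs 1.96% of protein-coding genes had at least the 7 peaks of Junb and 16.7% at least the 3 of Jun and Jund (median 1). These shares take no account of gene density. Junb has 8 other protein-coding genes within 50 kb, beside a median of 1 over all genes. Most of its 7 EpiSC peaks were nearer to the TSS of another gene. In kEpiSCs 3.44% had at least 3 peaks and 27.0% at least 1 (median 0). Within 10 kb, 0.576% of genes had at least the 4 EpiSC peaks of Junb and 5.78% at least the 2 of Jun and Jund. In kEpiSCs 1.29% had at least the 2 of Jun. All counts for Jun include its coding peak, whose source was not tested. Without it, only the promoter peak of Jun lies within 10 kb. At least 1 peak within 10 kb was found for 21.8% of genes in EpiSCs and 8.27% in kEpiSCs.

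**Figure D5:**
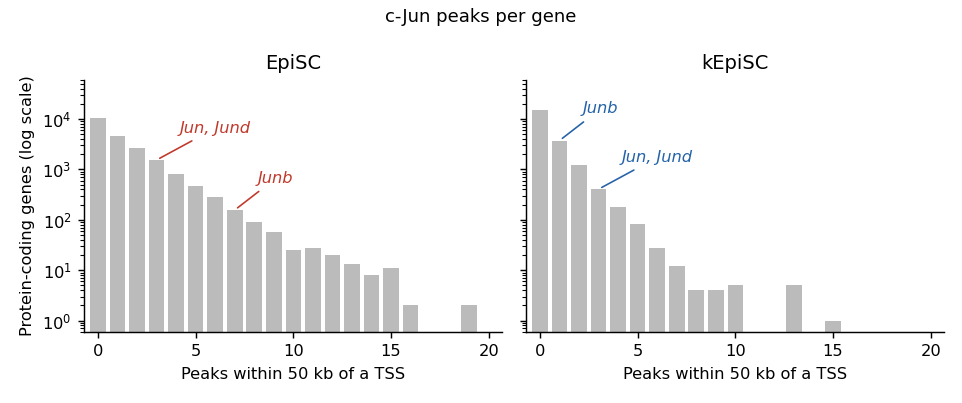
Bars count protein-coding genes (log scale) by their number of c-Jun peaks within 50 kb of a TSS, with the bars of Jun, Junb and Jund labelled. Junb lies at 7 peaks in EpiSCs and at 1 in kEpiSCs, and Jun and Jund lie at 3 in both.

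Genes of families with members that pair with Jun proteins, and regulators of Jun proteins, were counted from 5 lists of 42 genes. The family lists were drawn by name, so a listed gene need not encode a partner of c-Jun. Within 10 kb of a TSS 20 of the 42 genes (47.6%) had a peak in EpiSCs and 10 (23.8%) in kEpiSCs. Over all protein-coding genes the shares were 21.8% and 8.27%. Of the 4 Fos genes, whose proteins pair with Jun proteins, 3 had a peak in EpiSCs and 2 in kEpiSCs, with the highest folds at Fosb (16.4 and 10.2) and Fosl1 (7.57 and 6.69). Fosl2 had a fold of 5.69 in EpiSCs, and Fos itself had no peak within 10 kb in either list. Of 15 ATF, CREB and BATF genes 10 and 4 had a peak, among them the stress-induced factor gene Atf3 (10.4 and 10.3, at its promoter in both lines) and Creb5 (11.2 and 11.8). In order of q-value, Atf6b (6.60) and Atf6 (5.40) followed in EpiSCs, and Crem (6.69) and Jdp2 (5.54), a gene whose protein represses AP-1, in kEpiSCs. Of 7 Maf genes 2 had a peak in both lists, Mafk (13.6 and 7.48) and Maff (3.27 and 6.85). Of 8 genes of JNK, the kinase that phosphorylates c-Jun, and its upstream kinases 2 had a peak in both lists, Mapk8 (4.36 and 5.93) and Map3k7 (4.32 and 6.92). Of 8 genes for cofactors and for degradation of c-Jun, 3 had a peak in EpiSCs and 0 had one in kEpiSCs. The 3 were Mbd3 (8.44), a subunit of the NuRD repressor complex, Fbxw7 (5.82) and Hdac3 (4.79). Paired folds here are those of the highest-scoring peak of each list, which need not lie at the same place. In EpiSCs and kEpiSCs these peaks lay 93 and 8533 bp from a TSS for Creb5, 1073 and 2564 bp for Fosl1, and 6687 and 3523 bp for Mafk.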

How the data were processed

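Peaks came from c-Jun ChIP-seq with matched inputs in EpiSCs and kEpiSCs. The authors aligned reads against mm10 by Bowtie2, retained those with a unique position and ran MACS2 with its default settings. Other tools in the submitters' processing notes are SAMtools, bedtools and bcl2fastq. Tool versions were not given in the sources used here. Each deposited list is taken to pool both ChIP replicates, but only the first replicate's description names it, and it may rest on that library alone. The deposited columns hold a score, which is 10 times the −log10 of the q-value cut to a whole number, the fold enrichment, the −log10 of the p-value and of the q-value, and the summit's distance from the peak start. The authors' values were used as given.

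Distances ran from peak centres to TSSs of curated RefSeq transcripts (GRCm38.p6), and named places follow the same transcripts. Peaks overlapped when they shared at least 1 bp. The reads at a summit and the background were solved from fold and p, and a whole number of reads gave the deposited p-value to within 0.01 on its −log10 scale for 100% of peaks. In kEpiSCs 1 read counted as 0.775 in the pileup. Uniquely mapped reads leave out repeated sequence. Motifs were searched on both strands in the whole peak, and TGASTCA for counts in the central 200 bp. Intervals are 95% Wilson intervals and cover counting error only. The steps were tested on simulated data. The sequence of 1 peak is not reported here. Named genes were Jun, Junb and Jund with every peak, genes whose TSS was nearer to such a peak, up to 4 genes of each list and line by score within 10 kb, the 5 genes with the highest share of coding bases under peaks, and Klf4. The members, lists and distances were chosen with earlier results of these data known. The match of peak ends to coding ends was added after the Jun peak was seen. Python 3.11.15, numpy 2.4.6, pandas 2.3.3, scipy 1.17.1 and matplotlib 3.10.9 were used.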

Additional observations from a re-analysis of the deposited data

How the results depend on the processing

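Of 27 alternative values, 19 stayed within the range counted as unchanged, which for a count was 1.5 times. Counting peaks within 10 kb left 8 of the 13 EpiSC peaks and 4 of the 7 kEpiSC peaks, and 100 kb gave 11 in kEpiSCs (19 in EpiSCs). Where only peaks with a Jun family gene as the nearest protein-coding TSS counted, 6 and 4 remained, and 6 of the 13 EpiSC peaks were in the upper 50% of their list by score. The peaks covered 36.4% of the Jun exon in EpiSCs and 31.3% in kEpiSCs, and 99.9% and 99.0% when the coding part alone was measured, which follows from where the peak lies. Distances from peak edges, all RefSeq transcripts and GENCODE starts, the last chosen after seeing the data, left 13 and 7 peaks. With an overlap of 50% of both peaks 3 peaks were shared instead of 4, since the kEpiSC peak at the Jun promoter is the narrower, and without the Jun coding peak, a choice made after seeing the data, 3 were shared too. No paired analysis was possible because values per replicate are not part of a peak list, and no replicate could be left out for the same reason. Few reads per peak and the missing replicates limit all values.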

Other observations

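Beyond 50 kb and up to 100 kb from the TSSs the lists held further peaks with AP-1 sites near other genes. Past the 3′ end of Gdf15, a stress-induced cytokine gene, a peak 70481 bp upstream of the Jund TSS in EpiSCs had a partner in kEpiSCs. It lay at chr8:70627178-70627338 in EpiSCs (fold 6.12, 16 reads) and the partner at chr8:70627176-70627294 (7.05, 13 reads). The EpiSC peak held 2 copies of TGAGTCA. In Mast1, a kinase gene downstream of Junb, an intronic peak with 1 TGAGTCA was also found in both lines, 64605 bp from the Junb TSS in EpiSCs (fold 5.24, 8 reads) and 64640 bp in kEpiSCs (8.32, 14 reads).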
